A study of Mus musculus with 34 samples.

Results

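The 7 genes described here, Scn1a, Scn2a, Scn3a, Scn8a, Scn2b, Scn3b and Scn4b, encode subunits of the voltage-gated sodium channels, and they were found on the arrays as every probe set whose platform annotation gives 1 of these symbols. This rule took 20 of 45037 probe sets and 7 of the 18193 genes named on the arrays. Scn8a had 5 probe sets, Scn2a 4, Scn1a and Scn2b 3 each, Scn3a and Scn3b 2 each, and Scn4b 1. None of the 20 carried the symbol of a further gene. Probe sets of a gene are named below by the order of their mean level over all arrays, from the brightest to the dimmest. Of the 20, 5 probe sets, the dimmest of Scn2a, Scn3a, Scn8a, Scn2b and Scn3b, lay below the median of all probe sets.

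The arrays measured RNA of whole cortex from mice aged 15 weeks on a CBA X C57Bl/6 background. WT mice (n = 8 arrays) carried neither mutation, Hdac4HET mice (n = 8 arrays) carried 1 knock-out allele of Hdac4, R6/2 mice (n = 9 arrays) were hemizygous for a transgene that expresses exon 1 of mutant HTT, and Dble::R6/2 mice (n = 9 arrays) carried both. R6/2 mice make a fragment of huntingtin rather than the full-length mutant protein, and the Hdac4 allele was made on another mouse strain, whose DNA next to Hdac4 can travel with it. Both pairs of genotypes that differ in the transgene (R6/2 against WT, and Dble::R6/2 against Hdac4HET) and both that differ in the Hdac4 allele (Hdac4HET against WT, and Dble::R6/2 against R6/2) were compared, to ask how the channel genes stood in this Huntington's disease model and whether lowering Hdac4 moved them.

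Voltage-gated sodium channels open when a neuron is depolarised and carry the rising phase of the action potential. Each channel has a large alpha subunit that forms the pore (here the products of Scn1a, Scn2a, Scn3a and Scn8a) and smaller beta subunits (products of Scn2b, Scn3b and Scn4b) that set its gating, its place in the membrane and its contacts with other cells. In the cortex, the Scn1a channel is known for its role in inhibitory interneurons, the Scn2a and Scn8a channels for the axon initial segment of excitatory neurons, and the Scn3a and Scn3b subunits for high levels around birth. Scn2b and Scn4b subunits are joined to the alpha subunit by a disulfide bond, the Scn3b subunit is not, and the cytoplasmic end of the Scn4b subunit is known for resurgent sodium current in fast-firing neurons.

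All values are log2 expression values as deposited, and a change is a difference of mean log2 values. Array medians lay between 5.44 and 5.52. The level of Xist, transcribed from the inactive X chromosome, went against the labelled sex on 15 of the 34 arrays, 5 of WT, 5 of Hdac4HET, 1 of R6/2 and 4 of Dble::R6/2 mice. This puts the sample labels in doubt, the genotypes were used as labelled, and whether any genotype label is wrong too was not tested. Sex read from Xist was not balanced between genotypes. Xist was high on 5 of 8 WT, 2 of 8 Hdac4HET, 4 of 9 R6/2 and 3 of 9 Dble::R6/2 arrays. Prl, a pituitary hormone gene, was above 8 on 4 arrays, 3 of WT and 1 of Hdac4HET mice. The epidermal keratin gene Krt10 read 9.21 on R6/2 replicate 2 and at most 7.93 on the other arrays, and the summed level of 10 epidermal markers reached 10.5 in R6/2 against at most 9.33 in the other genotypes. The targeted gene Hdac4 fell by 0.48 on the log2 scale between WT and Hdac4HET (limma adjusted p = 0.0036), and the same probe set changed by -0.33 between R6/2 and Dble::R6/2 without passing (adjusted p = 0.691). All 10 measured cortical projection neuron markers and all 10 pan-neuronal markers lay above the median of all probe sets.

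**Figure D1:**
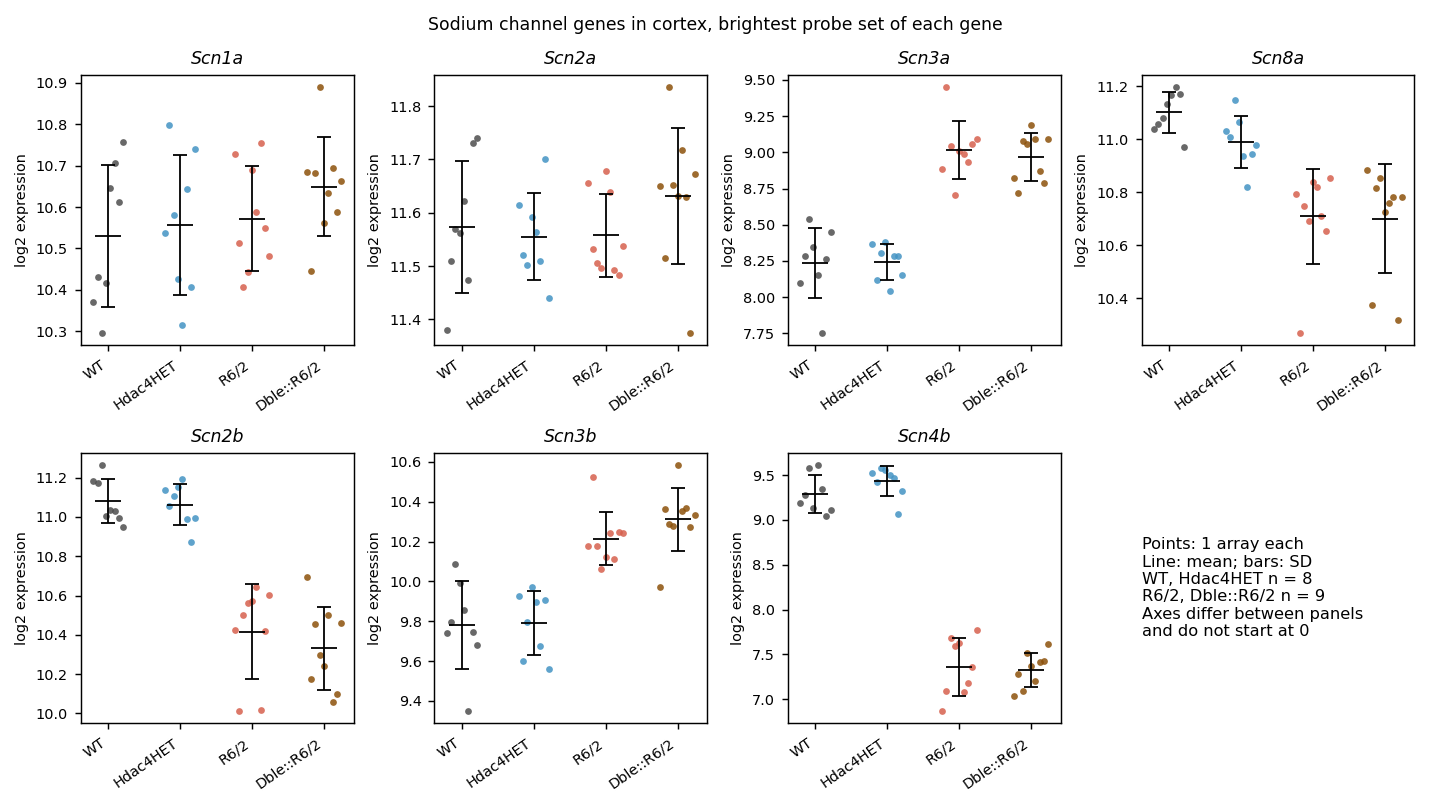
Log2 expression of the brightest probe set of each of the 7 genes on the 34 arrays, by genotype. Each point is 1 array, the horizontal line is the mean and the bars are the SD, and the axes do not start at 0. The Scn4b points of transgene carriers lie between 6.87 and 7.78 and those of non-carriers between 9.04 and 9.61, whereas the Scn1a and Scn2a points of the 4 genotypes overlap.

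Of the 20 sodium channel probe sets, 10 were called in R6/2 against WT, a call being an adjusted p of 0.05 or less over all probe sets, 2 higher and 8 lower, where 26.9% of all probe sets were called (14.9% higher and 12% lower). Groups did not overlap for 5 of them, against 7.22% of all probe sets. Of the 20, 7 were called in Dble::R6/2 against Hdac4HET, 2 higher and 5 lower, where 23.1% of all probe sets were called (13.2% higher and 9.98% lower), and 4 did not overlap, against 6.05%. These shares count dim probe sets too, whereas most of the 20 lay above the median level. When only the brighter probe sets were kept, 10133 were called in R6/2 and 9246 in Dble::R6/2, against 12127 and 10422 over all. The shares are thus not matched to the level of the 20, and matched shares were not computed. Taking each gene on its brightest probe set, 5 of 7 were called in each comparison, with Scn3a and Scn3b higher and Scn8a, Scn2b and Scn4b lower, where 32% (20.2% higher and 11.8% lower) and 30% (18.3% higher and 11.7% lower) of all genes were called. The median change over the 20 probe sets was -0.08 and -0.06, and over all probe sets it was 0.01 and 0.005.

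The largest difference among the 20 probe sets was that of Scn4b, the beta subunit joined by a disulfide bond and known for resurgent current. It read 9.04 to 9.61 on the WT arrays with a median of 9.23, and 6.87 to 7.78 on the R6/2 arrays with a median of 7.36. Every R6/2 array lay below every WT array. The log2 change was -1.92 ± 0.12 (SE) (95% interval -2.18 to -1.66), which left 26.4% of the WT level (limma adjusted p = 4.21e-09). On the Hdac4HET arrays it read 9.07 to 9.58 with a median of 9.49, and on the Dble::R6/2 arrays 7.04 to 7.61 with a median of 7.37. These groups did not overlap either, and Scn4b fell by 2.10 on the log2 scale, to 23.3% of the Hdac4HET level (adjusted p = 3.52e-12). In bulk cortex, fewer cells of a type and less RNA per cell cannot be told apart.

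Scn4b is known to be strongly expressed in striatal neurons, so the striatal projection neuron markers are given beside it. Of 10 measured, 3 fell in R6/2 against WT (Penk, which encodes enkephalin, by 1.17, Ppp1r1b, which encodes the phosphatase inhibitor DARPP-32, by 1.06, and the retinoic acid receptor gene Rarb by 0.62), and 5 fell in Dble::R6/2 against Hdac4HET. Of all genes, 11.8% and 11.7% were called lower in these comparisons. Among the 10 markers only Drd2 and Gpr6 lay below the median of all probe sets, and Drd1, Penk and Tac1 were among those above it. The summed level of the list ranged from 11.8 to 12.2 in WT, 11.8 to 12.4 in Hdac4HET, 11.4 to 12.2 in R6/2 and 11.4 to 11.7 in Dble::R6/2. For this sum the ranges overlapped between WT and R6/2 and were apart between Hdac4HET and Dble::R6/2. The part of these markers in the Scn4b result was not tested.

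For Scn2b, the other beta subunit joined by a disulfide bond, all 3 probe sets were called lower in both transgene comparisons. The brightest read 10.95 to 11.26 in WT (median 11.03) and 10.01 to 10.64 in R6/2 (median 10.50), and the groups did not overlap. It fell by 0.66 ± 0.09 (SE) on the log2 scale, to 63.1% of WT (limma adjusted p = 2.16e-05). On Hdac4HET arrays it read 10.87 to 11.20 (median 11.08) and on Dble::R6/2 arrays 10.06 to 10.69 (median 10.30), again without overlap, and it fell by 0.73 ± 0.08 (SE, adjusted p = 1.87e-06). The second brightest fell by 1.31 ± 0.22 (SE) in R6/2, with no overlap (adjusted p = 2.07e-04), and by 0.64 ± 0.16 in Dble::R6/2, where the groups overlapped (adjusted p = 0.00512). The dimmest fell by 0.28 (adjusted p = 0.00882) and by 0.33 (adjusted p = 0.0142).

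Scn2b and Scn4b are next to each other on chromosome 9 of the mouse, in the gene order of the RefSeq assembly GRCm38.p6. Tmprss4, the next gene beyond Scn4b, changed by -0.09 in R6/2 (adjusted p = 0.61) and by -0.08 in Dble::R6/2 (adjusted p = 0.604). Because both genes fell in both comparisons, the 250 bases before their RefSeq starts are shown, together with those before the first listed start of Scn8a, the other gene with lower brightest values. They are from RefSeq, build GRCm38.p6, and read 5′ to 3′. Both strands were searched for 6 motifs, and capitals mark the matches. These motifs were TATAAA (the box of that name), CCAAT (likewise), GGGCGG (the GC box), TGACG (the core of the cyclic AMP response element), CACGTG (an E-box) and the MEF2 motif.
Scn4b, chr9:45138374-45138623, plus strand: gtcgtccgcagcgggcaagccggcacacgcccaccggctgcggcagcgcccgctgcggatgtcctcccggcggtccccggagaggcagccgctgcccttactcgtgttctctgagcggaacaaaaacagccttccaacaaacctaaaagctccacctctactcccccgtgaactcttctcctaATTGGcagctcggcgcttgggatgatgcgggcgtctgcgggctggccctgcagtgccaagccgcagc
Scn2b, chr9:45117626-45117875, plus strand: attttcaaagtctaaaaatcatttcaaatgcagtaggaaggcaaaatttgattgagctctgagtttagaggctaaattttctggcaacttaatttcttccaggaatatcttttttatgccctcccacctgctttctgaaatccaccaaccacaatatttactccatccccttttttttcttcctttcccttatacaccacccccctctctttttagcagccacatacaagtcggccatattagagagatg
Scn8a, chr15:100870395-100870644, plus strand: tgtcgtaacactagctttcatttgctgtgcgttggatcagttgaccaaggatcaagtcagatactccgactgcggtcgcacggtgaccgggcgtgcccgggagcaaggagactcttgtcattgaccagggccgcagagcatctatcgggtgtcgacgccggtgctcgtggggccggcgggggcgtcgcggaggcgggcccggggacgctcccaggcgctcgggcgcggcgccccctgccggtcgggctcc

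The windows of the adjacent pair differed in composition. That of Scn4b held 66% G and C and that of Scn2b 38.4%, around a median of 52.4% over 32851 windows of the same length, and the Scn8a window held 68%. Scn4b had 1 CCAAT match, on the minus strand, and Scn2b and Scn8a had 0 matches to the 6 motifs. Of all windows, 33.8% held a CCAAT match, 32.7% a GC box, 17.8% the response element core, 12.4% TATAAA, 6.02% the E-box and 2.92% the MEF2 motif. These motifs share no common core, and their matches could overlap. The table held 7 windows for 5 of the 7 genes, and none for Scn3a and Scn3b.

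Scn8a, whose channel drives spike initiation at the axon initial segment, was lower on some probe sets and not on others. Its brightest probe set read 10.97 to 11.20 in WT (median 11.11) and 10.27 to 10.86 in R6/2 (median 10.75), with no overlap. The log2 change was -0.39 ± 0.07 (SE, limma adjusted p = 3.62e-04), which left 76.1% of WT. On Hdac4HET arrays it read 10.82 to 11.15 (median 10.99) and on Dble::R6/2 arrays 10.32 to 10.89 (median 10.78), and the groups overlapped, although 7 of the 9 Dble::R6/2 arrays lay below every Hdac4HET array. The change there was -0.29 ± 0.08 (SE, adjusted p = 0.0107). R6/2 replicate 2, the array high in epidermal markers, was the lowest R6/2 array, and without it the change against WT was -0.34 (adjusted p = 4.37e-05).

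The second brightest Scn8a probe set changed by -0.01 in R6/2 (95% interval -0.14 to 0.11, limma adjusted p = 0.9) and by -0.09 in Dble::R6/2 (adjusted p = 0.211). The third brightest fell by 0.54 in R6/2 (adjusted p = 0.00371) and changed by -0.35 in Dble::R6/2 (adjusted p = 0.0828). The fourth brightest fell by 1.45 ± 0.37 (SE, adjusted p = 0.0063) in R6/2, where its values ran from 4.29 on replicate 2 to 7.90, with a median of 7.13, against 7.23 to 8.75 in WT with a median of 8.44. These groups overlapped. The fall was 1.12 without replicate 2. Leaving out the Prl-high arrays instead gave a change of -1.30, which was not called (adjusted p = 0.0615). The same probe set changed by -0.67 in Dble::R6/2 (adjusted p = 0.155). The 5 probe sets of Scn8a thus gave 3 calls in R6/2 and 1 in Dble::R6/2, and which transcript ends or exons they read was not analysed here.

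Scn3a and Scn3b, an alpha and a beta subunit known for high levels around birth, were the members that rose. The brightest Scn3a probe set read 7.75 to 8.54 in WT (median 8.27) and 8.71 to 9.45 in R6/2 (median 9.01). Every R6/2 array lay above every WT array, and the log2 change was 0.78 ± 0.10 (SE), to 172% of WT (limma adjusted p = 1.39e-05). On Hdac4HET arrays it read 8.04 to 8.38 (median 8.28) and on Dble::R6/2 arrays 8.72 to 9.19 (median 9.06), again without overlap, a rise of 0.73 ± 0.07 (SE, adjusted p = 5.83e-07). The other Scn3a probe set had a mean of 2.98 in WT, near the low end of the values, and changed by 0.01 (adjusted p = 0.951) and by 0.02 (adjusted p = 0.911).

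The brightest Scn3b probe set read 9.35 to 10.09 in WT (median 9.77) and 10.06 to 10.52 in R6/2 (median 10.18), and 8 of the 9 R6/2 arrays lay above every WT array. It rose by 0.43 ± 0.09 (SE, limma adjusted p = 8.46e-04), to 135% of WT. On Hdac4HET arrays it read 9.56 to 9.973 (median 9.84) and on Dble::R6/2 arrays 9.974 to 10.58 (median 10.34), with almost no gap and no overlap, and it rose by 0.52 ± 0.08 (SE, adjusted p = 4.85e-05). The dimmest Scn3b probe set, below the median of all probe sets, changed by -0.30 in R6/2 (adjusted p = 0.117) and by 0.21 in Dble::R6/2 (adjusted p = 0.262). The mean of both Scn3b probe sets changed by 0.06 in R6/2 and was not called (adjusted p = 0.674), so the call rests on the brighter of them.

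Scn1a and Scn2a, the alpha subunits most associated with interneurons and with excitatory axons, were not called on their brightest probe sets in either transgene comparison. Scn1a read 10.30 to 10.76 in WT (median 10.52) and 10.41 to 10.75 in R6/2 (median 10.55). These ranges overlapped almost fully, and the change was 0.04 (95% interval -0.11 to 0.20, limma adjusted p = 0.742). For Dble::R6/2 against Hdac4HET it was 0.09 (95% interval -0.06 to 0.24, adjusted p = 0.429), and the other 2 Scn1a probe sets changed by -0.08 to 0.07 with no call. Fast-spiking interneuron markers are given beside it because the Scn1a channel is known in those cells. The list also holds Gad1, Gad2 and Slc32a1, general genes of GABA neurons that are not particular to fast-spiking cells. Of 10 measured, 7 fell in R6/2, among them Gad1, which makes GABA, by 0.90 and the calcium buffer gene Pvalb by 0.62, and 8 fell in Dble::R6/2. Of all genes, 11.8% and 11.7% were called lower in these comparisons. The summed level of the 10 markers was 13.2 to 13.4 in WT and 12.5 to 12.7 in R6/2, a sum in which Gad1 was the brightest gene (mean 11.5). Of the 10 only Erbb4 lay below the median of all probe sets.

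Scn2a read 11.38 to 11.74 in WT (median 11.57) and 11.48 to 11.68 in R6/2 (median 11.53), and the groups overlapped. It changed by -0.02 (95% interval -0.13 to 0.10, limma adjusted p = 0.89) in R6/2 and by 0.08 (95% interval -0.05 to 0.20, adjusted p = 0.436) in Dble::R6/2. The third brightest Scn2a probe set differed from the other 3. It read 9.25 to 10.17 in WT (median 9.73) and 7.38 to 9.44 in R6/2 (median 9.00), a fall of 0.87 ± 0.23 (SE, adjusted p = 0.0067) with overlapping groups. Without the arrays high in Prl, all of which were non-carriers, this change was -0.71 and no longer passed (adjusted p = 0.0794). It was -0.13 in Dble::R6/2 (adjusted p = 0.741). The second brightest and the dimmest changed by -0.13 to 0.05 over both comparisons with no call.

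**Figure D2:**
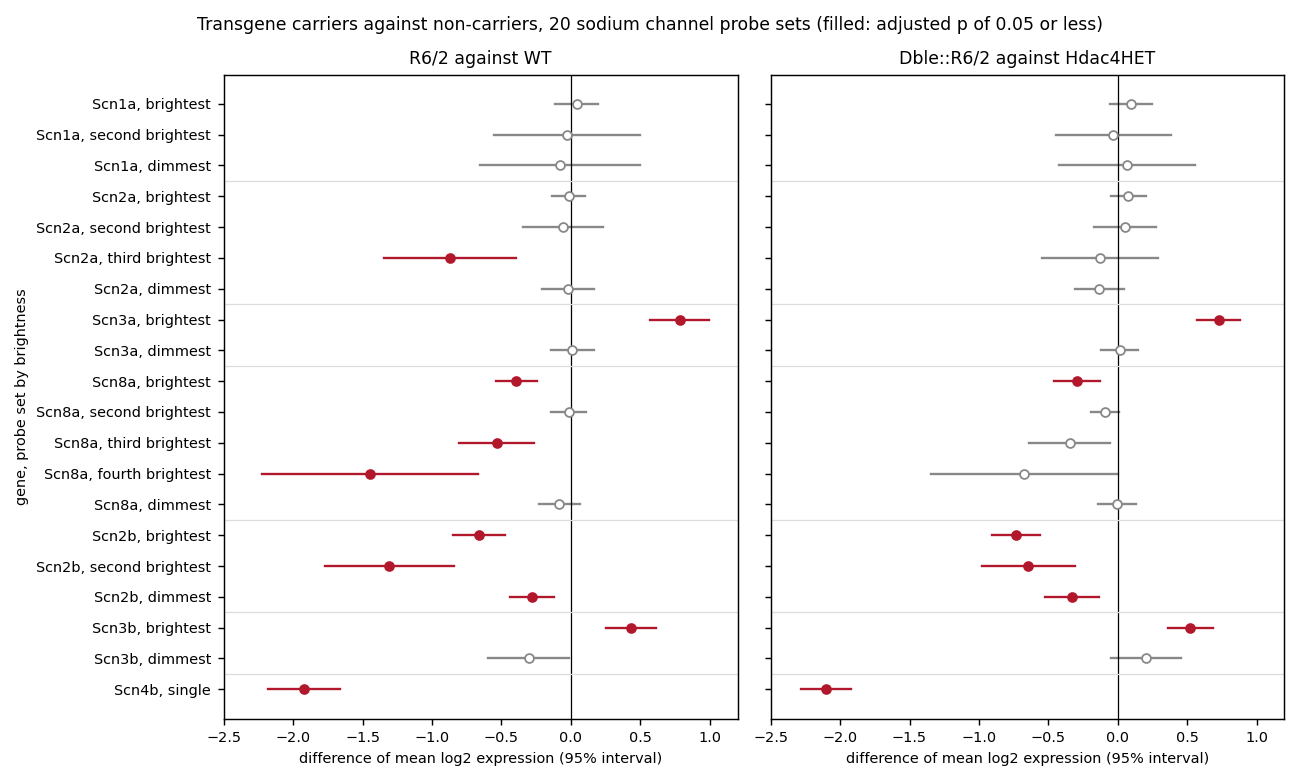
Difference of mean log2 expression with its 95% interval for the 20 probe sets, R6/2 against WT (left) and Dble::R6/2 against Hdac4HET (right). Filled points passed an adjusted p of 0.05 or less. In both panels Scn4b lies farthest to the left, at -1.92 and -2.10, and the brightest Scn3a and Scn3b probe sets lie to the right of 0.

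The order of the 4 genotypes was tested on the brightest probe set of each gene between neighbours. For Scn4b it ran from Hdac4HET (9.43) through WT (9.29) and R6/2 (7.36) to Dble::R6/2 (7.33), and neighbours differed only between WT and R6/2. For Scn2b and Scn8a it ran from WT through Hdac4HET and R6/2 to Dble::R6/2, and only the step from Hdac4HET to R6/2 differed, by 0.65 and 0.28 (limma adjusted p = 3.08e-05 and 0.00814). Scn3a and Scn3b differed only at the step from transgene carriers to Hdac4HET, by 0.73 (adjusted p = 5.83e-07) and 0.42 (adjusted p = 2.94e-04). For Scn1a and Scn2a no neighbours differed. Some steps needed comparisons across both mutations, in which 28.4% (R6/2 against Hdac4HET) and 36.4% (Dble::R6/2 against WT) of all genes were called.

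In Hdac4HET against WT, 1 of the 20 probe sets was called and 4 had an unadjusted p under 0.05, where 3.91% of all probe sets were called, and groups were apart without overlap in 0 of the 20, against 0.28% of all probe sets. That share was 1760 probe sets, and with sex read from Xist, which was not balanced between these genotypes, 22 were called. The call among the 20 was the third brightest Scn2a probe set, which fell from a range of 9.25 to 10.17 (median 9.73) to 8.94 to 9.55 (median 9.24) with overlap, by 0.47 ± 0.12 (SE, limma adjusted p = 0.0413). It was lost in 11 of 16 fits that each left out 1 array, and with sex read from Xist (adjusted p = 0.139). The replicate number as a block, all genotypes in 1 fit, the methods' t-test and leaving out the arrays high in Prl each lost it too. The change farthest from 0 was that of the fourth brightest Scn8a probe set, which read 7.23 to 8.75 in WT (median 8.44) and 6.79 to 8.28 in Hdac4HET (median 7.67). These groups overlapped, and the change was -0.80 ± 0.23 (SE, limma adjusted p = 0.0545). It passed in 4 of 16 fits that each left out 1 array (adjusted p from 0.00893 to 0.111 over the 16). On the brightest probe sets the changes lay between -0.11 for Scn8a and 0.14 for Scn4b, and 0 of 7 were called, against 3.17% of all genes. The interval for Scn4b was -0.05 to 0.34.

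In Dble::R6/2 against R6/2, 0 of the 20 probe sets were called by limma, 0 had an unadjusted p under 0.05 and 0 were called by the methods' t-test after Benjamini-Hochberg adjustment, where 0.00666% of all probe sets were called by limma. The groups were apart without overlap in 0 of the 20, against 0.0178% of all probe sets. Scn4b changed by -0.03 (95% interval -0.28 to 0.21), Scn2b by -0.09 (-0.30 to 0.13), Scn8a by -0.01 (-0.19 to 0.18), Scn3a by -0.05 (-0.23 to 0.13) and Scn3b by 0.10 (-0.05 to 0.25). The interaction of the transgene and the allele was not called for any of the 20 (1 of 45037 probe sets, 0.00222%, was), and its smallest unadjusted p was 0.011, for the dimmest Scn3b probe set, with a log2 value of 0.51 (limma adjusted p = 0.352). In simulated data, 58.2% of changes of 1.3-fold and 85.1% of changes of 1.5-fold were recovered in this comparison. Those data had independent noise and 200 changed probe sets, whereas 3 of 45037 were called here, and fewer changes make the adjusted p stricter. The recovery in the real comparison may therefore be lower, and the targeted gene Hdac4 itself changed by -0.33 without passing (limma adjusted p = 0.691). Differences of these sizes or smaller may have gone undetected.

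**Figure D3:**
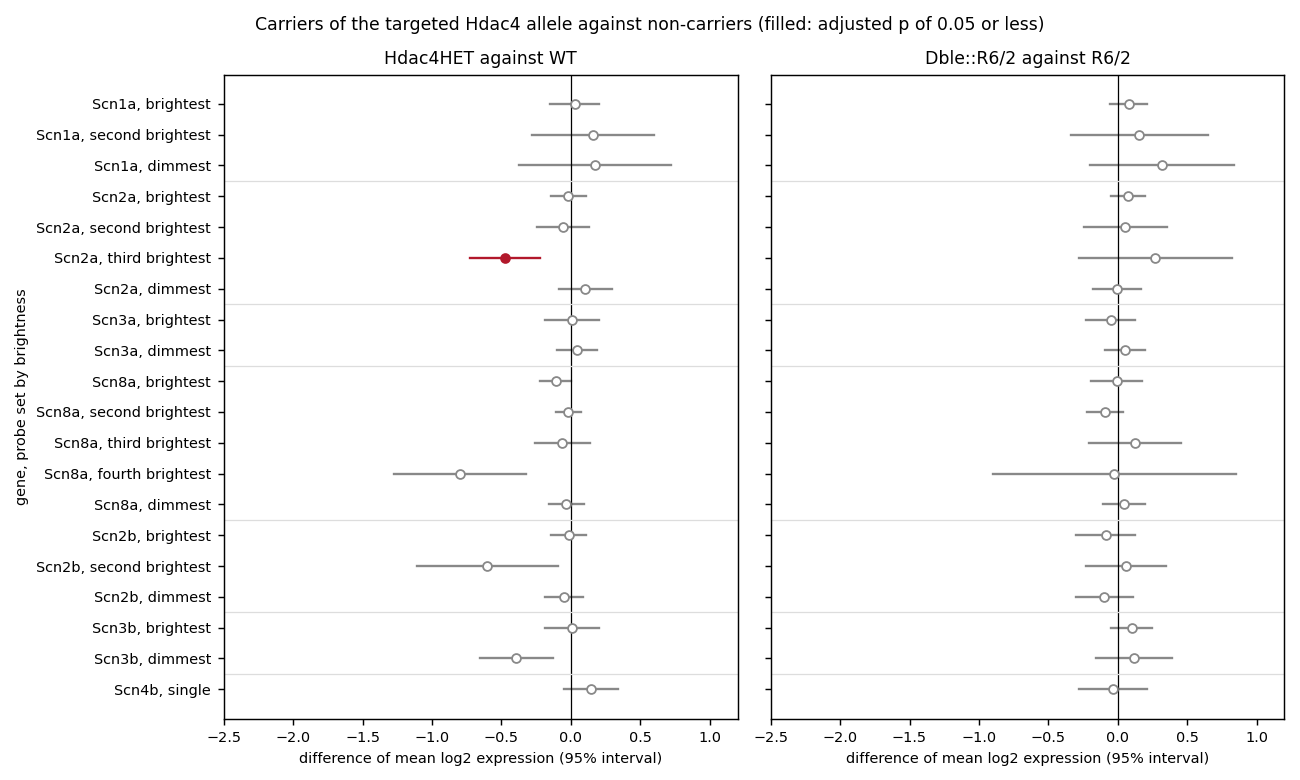
Difference of mean log2 expression with its 95% interval for the 20 probe sets, Hdac4HET against WT (left) and Dble::R6/2 against R6/2 (right), on the axis of the plot of transgene comparisons. Filled points passed an adjusted p of 0.05 or less, which only the third brightest Scn2a probe set did, in Hdac4HET against WT.

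Among arrays of 1 genotype, some sodium channel probe sets varied far more than others. The SD within genotypes was 0.11 for the brightest Scn2a probe set and 0.10 for the second brightest of Scn8a, at percentiles 4.61 and 2.26 of all probe sets, but 0.80 for the fourth brightest of Scn8a, at percentile 99.6. In all, 5 probe sets had an SD over 0.3 (the second brightest and dimmest of Scn1a, the third brightest of Scn2a, the fourth brightest of Scn8a and the second brightest of Scn2b). Across the 34 arrays their deviations from the genotype means had Pearson's r from 0.12 to 0.87 over the 10 pairs, with a median of 0.50. The mean deviation of the 5 was highest on WT replicate 6 (0.82) and lowest on R6/2 replicate 2 (-1.28). These probe sets share the RNA sample of each array, and whether its quality moved with them was not tested.

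Within Scn8a, deviations of the brightest and the fourth brightest probe sets went together across the 34 arrays (Pearson's r = 0.92), whereas those of the second brightest ran against the brightest (r = -0.52), the third (r = -0.59) and the fourth (r = -0.57). The 3 Scn1a probe sets rose and fell together (r = 0.56 to 0.87). The brightest Scn2a probe set was only weakly related to the other 3 (r = -0.01 to 0.34). All arrays entered these values, R6/2 replicate 2 included, and they are given as a description.

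**Figure D4:**
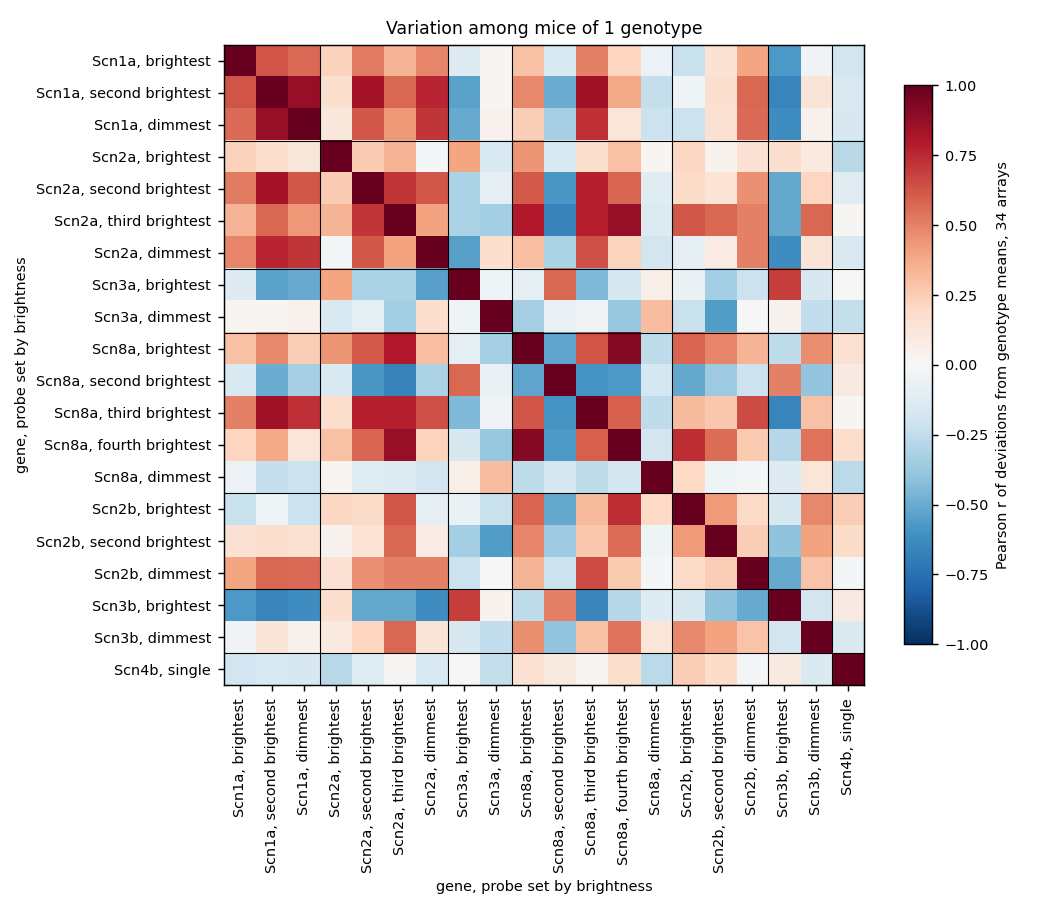
Pearson's r between the 20 probe sets, computed over 34 arrays on deviations from the mean of each array's genotype. Rows and columns are the same probe sets, black lines separate genes, and red is positive and blue negative. The brightest Scn8a probe set is red with the dimmer one ranked after the third (0.92) and blue with its second brightest (-0.52).

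Between genes, 21 pairs were compared on the brightest probe sets in the same way over 34 arrays, with permutation tests within genotypes. Scn3a and Scn3b, the pair that rose, went together most closely (Pearson's r = 0.69, permutation p = 1.1e-04, adjusted 0.00231, Spearman's rho = 0.56, p = 0.00133, adjusted 0.0236). Without the 2 arrays farthest from the median of Scn3a, r was 0.53. Scn8a and Scn2b followed (r = 0.58, permutation p = 0.00235, adjusted 0.0164, rho = 0.46, p = 0.00927, adjusted 0.0649, and r = 0.39 without 2 arrays), so the relation was called on r alone. Scn1a and Scn3b ran against each other (r = -0.58, permutation p = 0.00103, adjusted 0.0108, rho = -0.56, p = 0.00225, adjusted 0.0236, and r = -0.57 without 2 arrays). The neighbours Scn2b and Scn4b did not pass (r = 0.25, permutation p = 0.231, adjusted 0.441, rho = 0.27, p = 0.161, adjusted 0.406).

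The genes most like each member, of 18193, were taken as those of highest Pearson's r on the same deviations over 34 arrays, and such values are the largest of many. For Scn4b they were Ppp1r1b (r = 0.78), the histamine receptor gene Hrh3 (0.68) and Mri1 (0.67), and without the 2 arrays farthest from the median of Scn4b they were 0.77, 0.66 and 0.65. Ppp1r1b fell by 1.06 and Hrh3 fell by 1.16 in R6/2, whereas Mri1 rose by 0.69 (limma adjusted p = 1.94e-04). Ralgps2 was the nearest gene of both Scn3a (r = 0.79) and Scn3b (r = 0.82), and it rose by 0.65 in R6/2 (adjusted p = 9.62e-06). The nearest of Scn8a were Ntan1 (0.91), Snapin (0.91) and Gnas (0.90), those of Scn2b were Slc23a2 (0.87), Rnf11 (0.86) and Ptpra (0.86), those of Scn1a were Tafa2 (0.76), Zfp101 (0.74) and Taf1 (0.73), and those of Scn2a were Gtf2a1 (0.76), Psma3 (0.71) and Sf3b1 (0.68).

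The alpha subunit genes Scn3a, Scn2a, Scn1a, Scn9a and Scn7a lie in this order on chromosome 2, with other genes between Scn2a and Scn1a. Of 8 genes measured from Scn3a to Scn7a, those at either end rose in both transgene comparisons on their brightest probe sets, and the others were not called on theirs. This was a smaller share of calls than the 32% (R6/2) and 30% (Dble::R6/2) over all genes. Scn7a, an atypical channel gene that senses sodium, is below the median of all probe sets, and it went from 4.44 to 5.39 in R6/2, a rise of 0.95 (limma adjusted p = 2.9e-04), and rose by 1.04 in Dble::R6/2 (adjusted p = 8.94e-06). Csrnp3, Galnt3 and Ttc21b, which lie between, changed by -0.08 to 0.22. Scn3b has Zfp202 and Gramd1b on either side on chromosome 9, and neither was called in R6/2, but Zfp202 rose by 0.31 in Dble::R6/2 (adjusted p = 0.004). These neighbours were chosen after their values had been seen.

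Among other sodium channel genes, 7 of 10 were measured, and 2 rose and 1 fell in R6/2 (median change 0.10, against 0.02 over all genes). In that comparison 20.2% of all genes were called higher and 11.8% lower. Beside Scn7a, the leak channel gene Nalcn rose by 0.15 (limma adjusted p = 0.0324), while Unc80, whose product holds the leak channel complex together, fell by 0.48 (adjusted p = 1.08e-04). Scn7a and Nalcn also rose in Dble::R6/2, where Unc80 changed by -0.25 (adjusted p = 0.174). The other 4 (Scn9a, Scn10a, Scn11a and Unc79) were below the median of all probe sets and were not called.

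Of 17 measured partners at the axon initial segment and the node of Ranvier, where these channels are anchored, 3 rose and 6 fell in R6/2 (median -0.07) and 3 rose and 5 fell in Dble::R6/2 (median -0.07). Over all genes, 20.2% were called higher and 11.8% lower in R6/2, and 18.3% higher and 11.7% lower in Dble::R6/2. The potassium channel genes Kcna1 and Kcna2 fell by 0.55 and 0.52 in R6/2 (limma adjusted p = 2.94e-06 and 1.26e-04), and by 0.50 and 0.44 in Dble::R6/2. The cell adhesion gene Nfasc rose by 0.51 (adjusted p = 0.00239) and L1cam by 0.43, and the spectrin gene Sptbn4 by 0.39, whereas the adhesion gene Nrcam fell by 0.38 (adjusted p = 1.27e-04). Ank3, which encodes the ankyrin that anchors the channels, changed by 0.02 (adjusted p = 0.848) in R6/2 and by -0.07 (adjusted p = 0.39) in Dble::R6/2. Sptbn4, Nrcam and Ank3, and Fgf11 and Fgf13 in the next list, were chosen for mention after their values had been seen.

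Of 15 measured regulators of the channels, 4 rose and 5 fell in R6/2 (median 0.03), where 32% of all genes were called (20.2% higher and 11.8% lower). In Dble::R6/2 that share was 30% (18.3% higher and 11.7% lower), and the share of the regulators called there, given below, was close to it. All 4 measured genes of intracellular fibroblast growth factor homologues, which bind the channels' cytoplasmic ends, were among the falls, Fgf12 by 0.55 (limma adjusted p = 6.27e-06), Fgf14 by 0.48 (adjusted p = 0.0302), Fgf11 by 0.32 (adjusted p = 0.0131) and Fgf13 by 0.30 (adjusted p = 3.24e-04). Of the same regulators 1 rose and 4 fell in Dble::R6/2, where Fgf11, Fgf12 and Fgf14 fell and Fgf13 changed by -0.21 (adjusted p = 0.0598). The splicing factor gene Rbfox1 fell by 0.41 and by 0.31. Rest, which encodes a repressor of neuronal genes that include sodium channels, rose by 0.37 in R6/2 (adjusted p = 0.011) and changed by 0.06 in Dble::R6/2 (adjusted p = 0.817). Of 6 sodium pump genes 3 were measured, and Atp1b1, Atp1b2 and Atp1b3 all fell in R6/2, by 0.28 to 0.32, but only Atp1b2 in Dble::R6/2, by 0.32. Between Hdac4HET and WT the only call in these 4 lists was Fgf13, which fell by 0.25 (adjusted p = 0.0293), where 3.17% of all genes were called.

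**Figure D5:**
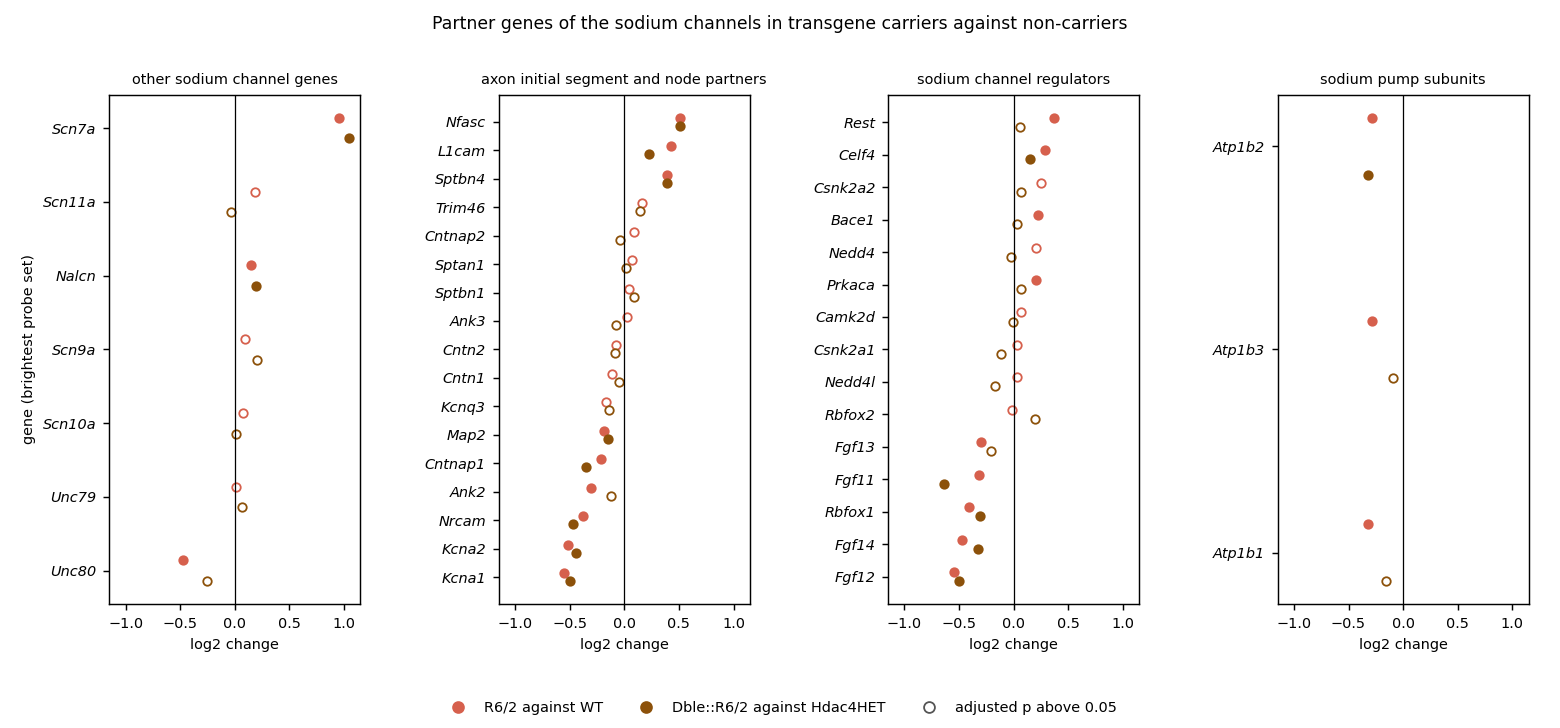
Log2 change of the brightest probe set of each measured gene in 4 lists of genes that work with the sodium channels, R6/2 against WT (red) and Dble::R6/2 against Hdac4HET (brown). Open points had an adjusted p above 0.05. Scn7a, at 0.95 and 1.04, is farthest to the right, and Kcna1, Kcna2 and Fgf12 lie between -0.44 and -0.55.

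Markers of other cells are given for both transgene comparisons, and their part in the sodium channel results was not tested. Of all genes, 20.2% were called higher and 11.8% lower in R6/2 (32% together), and 18.3% and 11.7% in Dble::R6/2 (30% together). The endothelial and mural list and the epidermal list held no larger share of calls than all genes in either comparison. The same was true of the oligodendrocyte, oligodendrocyte precursor and pituitary lists in Dble::R6/2. These shares take both directions together, and by direction some were larger than over all genes. In Dble::R6/2, 3 of 10 oligodendrocyte and 1 of 5 precursor markers fell, against 11.7%, and 3 of 10 epidermal markers rose, against 18.3%. In R6/2, 3 of 10 endothelial and mural markers rose, against 20.2%. In R6/2 against WT, pan-neuronal markers gave 8 falls and 0 rises of 10 measured, cortical projection neuron markers 5 falls and 1 rise of 10, astrocyte markers 6 falls and 1 rise of 10, oligodendrocyte markers 4 falls of 10, oligodendrocyte precursor markers 2 falls of 5, microglia markers 6 falls of 9, and endothelial and mural markers 3 rises of 10. Pan-neuronal summed levels ranged from 15.2 to 15.4 in WT and from 14.9 to 15.2 in R6/2. Epidermal markers gave 1 rise of 10 and pituitary markers 3 falls of 7. For Dble::R6/2 against Hdac4HET the same lists gave 8 falls (pan-neuronal), 6 falls and 1 rise (cortical projection neuron), 6 falls (astrocyte), 3 falls (oligodendrocyte), 1 fall (oligodendrocyte precursor), 8 falls (microglia), 1 rise and 1 fall (endothelial and mural), 3 rises (epidermal) and 0 calls (pituitary). Without R6/2 replicate 2 and, separately, without the arrays high in Prl, the 5 genes called on their brightest probe set stayed called in the same direction, Scn4b with changes of -1.89 and -1.96 and Scn3a with 0.73 and 0.70.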

How the data were processed

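RNA was extracted by the authors from cortex with a column kit, labelled from 200 ng and hybridised to 34 Affymetrix mouse genome arrays, and arrays of poor quality were left out by them. The values the authors deposited are log2 expression per probe set. How they were background-corrected, normalized and summarised is not stated in the sources read here. All 34 columns matched a sample by name, with 0 left over. Symbols came from the platform annotation (34945 probe sets with 1 symbol, 932 with several and 9160 with none), and 34741 could be matched to the RefSeq gene table of GRCm38.p6.

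Each pair of genotypes was fitted on its own arrays with lmFit and eBayes (limma 3.58.1, R 4.3.3), p-values were adjusted by Benjamini-Hochberg over all 45037 probe sets, dim ones included, and a call is an adjusted p of 0.05 or less. The interaction was fitted over all 4 genotypes. A gene was represented by its brightest probe set over all arrays. Simulated data in which 200 probe sets had been changed were used to check the fits, which recovered 50.7% of changes of 1.3-fold and 98.5% of 2-fold for R6/2 against WT. Those data had independent noise, and 12127 probe sets were called in the real comparison, where the adjusted p is less strict. The recovery is therefore not an estimate for the real comparison. Summed marker levels are the log2 of the summed linear values. Correlations used deviations from genotype means, and their permutation tests were 2-sided with 100000 resamples within genotypes. Named genes were all members, up to 4 called genes of largest change per list and the 3 genes most like each member. The members and lists were chosen with earlier results of these data known. The labels give each replicate a number and a sex but do not say whether replicates are separate animals, so p-values measure the spread between these arrays, whose number limits the precision. Alternatives were quantile normalization, brighter probe sets only, trend and robust eBayes, array weights, sex from the labels or from Xist, the replicate number as a block, 1 fit for all genotypes, the methods' t-test, a fold change over 30%, a gene's probe sets averaged, no arrays high in Prl, and each array left out. Figures were drawn with matplotlib 3.10.9. Deviations of same-numbered arrays correlated at -0.12 to 0.28 in R6/2 against WT, at -0.35 to 0.34 in Dble::R6/2 against Hdac4HET, at -0.14 to 0.25 in Hdac4HET against WT and at -0.14 to 0.45 in Dble::R6/2 against R6/2, where 6 of 9 pairs were over 0.1. In none of the comparisons was every pair over 0.1, so the numbers were not taken as pairs.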

Additional observations from a re-analysis of the deposited data

Results flagged for a closer look

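Over 20 probe sets and 4 genotypes, in 10 of 80 groups of arrays, 1 array lay far from the others by Dixon's criterion at the 95% level, which chance alone gives in about 1 of 20 groups. R6/2 replicate 2, the array high in epidermal markers, was the one set apart in 5 of these: it was low for the second brightest Scn2a probe set (9.50), the third brightest Scn2a (7.38), the brightest Scn8a (10.3) and the fourth brightest Scn8a (4.29), and high for the brightest Scn3b (10.5). Hdac4HET replicate 4 was low for the second brightest Scn1a probe set (9.01), the dimmest Scn1a (5.18) and the dimmest Scn2b (4.73). WT replicate 8 was low for the fourth brightest Scn8a probe set (7.23) and WT replicate 6 high for the second brightest Scn2b (8.15). Without R6/2 replicate 2 the log2 changes against WT were -0.34 for the brightest Scn8a, -1.12 for the fourth brightest Scn8a, -0.69 for the third brightest Scn2a and 0.39 for the brightest Scn3b, and each remained called by limma.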

How the results depend on the processing

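The counts of sodium channel probe sets called in R6/2 against WT (8 to 11) and in Dble::R6/2 against Hdac4HET (5 to 8) stayed within 1.5 times the reported 10 and 7 under every alternative run, and Dble::R6/2 against R6/2 and the interaction gave 0 throughout. With single arrays left out the counts were 10 to 11, 7 to 8, 0 and 0. Hdac4HET against WT, reported as 1, gave 2 with quantile normalization, with the brighter probe sets only and with array weights, 3 with sex from the labels, and 0 with sex from Xist, the replicate block, all genotypes in 1 fit, the methods' t-test or no arrays high in Prl, and 0 to 3 with single arrays left out. The count over all probe sets in this comparison varied as well. It was 1760 in the reported fit, 3305 with sex from the labels, 22 with sex from Xist, 173 by the methods' t-test and 5 without the arrays high in Prl. With single arrays left out it ran from 183 to 3994. The replicate numbers were not taken as pairs (not every pair's correlation was over 0.1 in any comparison, and arrays correlated best with their own number in 0 of 8, 1 of 8, 2 of 8 and 3 of 9 cases), and with the number as a block the counts were 10, 6, 0 and 0. Calls lost were the brightest Scn3b in R6/2 with probe sets averaged (0.06), the third brightest Scn2a (-0.71) and the fourth brightest Scn8a (-1.30) in R6/2 without the arrays high in Prl, and the dimmest Scn2b in Dble::R6/2 under the replicate block (-0.33, adjusted p = 0.058). The third brightest Scn2a in Hdac4HET against WT was lost under each setting that gave 0 calls there, and in 11 of 16 fits with single arrays left out. The third brightest Scn8a gained a call in Dble::R6/2 without replicate 1 (-0.42) or 4 (-0.42) of that genotype, and the fourth brightest Scn8a gained one in Hdac4HET against WT with quantile normalization (-0.80), the brighter probe sets only (-0.80), array weights (-0.75) or sex from the labels (-0.86), and in 4 of 16 fits with single arrays left out (-0.95 to -0.69 over all 16). The cause was not tested.

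Signs turned for small changes that were not called. In R6/2 against WT these were Scn2a (0.0097 with quantile normalization, -0.0431 to 0.00844 with single arrays left out) and Scn1a (-0.0212 with probe sets averaged). In Dble::R6/2 against Hdac4HET it was Scn2a (-0.0324 with probe sets averaged). In Hdac4HET against WT they were Scn2a (0.0145 with quantile normalization, -0.0455 to 0.0060), Scn3b (-0.0171 with array weights, -0.0999 without the arrays high in Prl, -0.19 averaged, -0.0512 to 0.0547), Scn1a (-0.0244 with sex from Xist, -0.00742 to 0.0615), Scn3a (-0.0944 without the arrays high in Prl, -0.0631 to 0.0493), the third brightest Scn8a (0.0089 without them) and Scn2b (-0.0357 to 0.0102), each last range with single arrays left out. In Dble::R6/2 against R6/2 they were Scn3a (0.0340 with array weights, 0.00014 averaged, -0.0905 to 0.00273), Scn8a (0.0077 with sex from Xist, 0.0083 averaged, -0.0638 to 0.0387), the fourth brightest Scn8a (0.0469 with sex from Xist, -0.349 to 0.159), the second brightest Scn2b (-0.00809 to 0.152) and Scn4b (-0.0956 to 0.0183), again with ranges over single arrays left out. Dble::R6/2 and R6/2 hold none of the arrays high in Prl, so that setting leaves their comparison as it was.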
